A study of Mus musculus with 64 samples.

Results

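The cytosolic ribosomal protein genes are 83 of the 45708 genes in the count table. They were taken by symbol: Rpl or Rps followed by a digit, with Rpsa, Rplp0, Rplp1 and Rplp2 added, and without the 258 rows whose symbol holds -ps, the 10 Rps6k kinase rows and the 9 paralogs whose symbols end in l or l1. Of the 83 genes, 31 encode proteins of the small subunit, 43 proteins of the large subunit and 3 proteins of the P stalk (Rplp0, Rplp1 and Rplp2). The other 6 are 5 extra gene copies (Rps27rt, Rpl37rt, Rps3a2, Rps3a3 and Rps12l2) and Rps19bp1, which encodes a protein that binds Rps19 and is not part of the ribosome. After the filter on low counts 82 genes were tested, all but Rps12l2, and these include all 77 main ribosomal proteins. No measured value enters the choice of symbols. The family was selected on its fold changes, because these same counts had already shown it higher in RISP KO libraries, so the counts of genes called and the fold changes of KO against Het or WT are given as a description and nothing is read from them.

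The study sequenced RNA from microglia, the macrophages that live in brain tissue, after sorting by flow cytometry on CD45.2 and CD11b with a viability dye. RISP, the Rieske protein, is an iron-sulphur subunit of mitochondrial complex III that the gene Uqcrfs1 encodes. Libraries are labelled RISP KO, Het or WT, and adult unless said otherwise. The 64 libraries form 12 groups, of which 11 are compared here. There are 13 KO, 13 Het and 5 WT libraries of naive adult mice. Cuprizone, a copper chelator that causes loss of oligodendrocytes and myelin, gave 6 KO and 4 Het libraries. PLX3397, a CSF1R inhibitor that kills microglia, gave 2 KO, 2 Het and 4 WT libraries labelled depletion and 4 KO, 4 Het and 4 WT libraries labelled repopulation. The 3 old naive Het libraries enter no comparison. The labels name no Cre line, promoter, dose, day or sex and do not tell if each replicate is its own animal. The p-values then measure only the spread between these libraries, which may be technical.

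A ribosome translates mRNA with a small subunit that decodes and a large subunit that joins amino acids, and almost every ribosomal protein is present once in each particle. In vertebrates most ribosomal protein genes, and several genes of elongation factors, start transcription at a C within a run of pyrimidines. This 5′ terminal oligopyrimidine (TOP) run couples the translation of the mRNA to mTORC1, a kinase complex that responds to nutrients and growth signals. In bulk RNA from a sorted population, more RNA of a gene per cell and more cells that express it cannot be told apart.

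The start sites of some members are shown first because the pyrimidine run is the sequence that these genes are known to share. RefSeq promoters on GRCm38.p6 were at hand for 57 of the 77 main members (67 promoters). Each line below gives 15 bases before and 15 bases after the annotated start, 5′ to 3′ on the coding strand, and capitals mark the longest run of 8 or more C or T within the 30 bases. Rps15a, Rpl38, Rps27, Rpl39, Rps6 and Rplp2 are described below by their values, and Rpl18 and Rps9 are among the 10 members with the lowest mean KO fold change.
Rps15a (chr7:118116133-118116162, minus strand): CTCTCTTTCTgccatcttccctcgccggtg
Rpl38 (chr11:114668565-114668594, plus strand): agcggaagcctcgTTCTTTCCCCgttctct
Rps6 (chr4:86857353-86857382, minus strand): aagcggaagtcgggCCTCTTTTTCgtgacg
Rps27 (chr3:90213634-90213663, minus strand): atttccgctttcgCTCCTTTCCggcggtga
Rplp2 (chr7:141447636-141447665, plus strand): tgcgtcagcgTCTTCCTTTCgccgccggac
Rpl39 (chrX:37085208-37085237, minus strand): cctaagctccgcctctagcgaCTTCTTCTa
Rpl18 (chr7:45718056-45718085, plus strand): tgcgtctcgcaggccgCTCTTTCCCCgccc
Rps9 (chr7:3704026-3704055, plus strand): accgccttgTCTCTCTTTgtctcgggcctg
The windows of Rpl10, Rplp0 and Rpl36a hold no run of that length at the annotated start, and they are shown because Rpl36a is among the 10 members with the highest mean KO fold change, Rpl10 is among the 10 with the lowest and Rplp0 lies between.
Rpl10 (chrX:74270801-74270830, plus strand): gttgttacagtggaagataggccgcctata
Rplp0 (chr5:115559452-115559481, plus strand): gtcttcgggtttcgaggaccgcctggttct
Rpl36a (chrX:134585639-134585668, plus strand): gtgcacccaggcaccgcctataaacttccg
A run of 8 or more C or T on the coding strand, within 25 bases of the start on either side, was in 46.3% of the 67 member promoters and in 19.7% of all 32851 promoters. Counted by gene, it was in 52.6% of the 57 members and in 22.3% of all genes with a promoter. A C and 4 pyrimidines after it, beginning within 5 bases of the start, were in 43.3% of member promoters and 18.3% of all. The letters CCGGAAG on either strand, whose reverse complement holds 5 pyrimidines in a row and can overlap such a run, were in 37.3% of the member windows of 300 bases and in 8.86% of all windows of that length. The order of the medians with and without the pyrimidine run changed between comparisons. In naive KO against WT the median log2 fold change was 0.78 over the 30 members with a pyrimidine run and 0.82 over the 27 without. Under cuprizone it was 1.31 with and 1.41 without, and in KO 12 and 13 against Het 1.14 with and 1.07 without. For CCGGAAG it was 0.80 both with and without in naive KO against WT, and 1.13 with and 1.06 without in KO 12 and 13 against Het.

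The label KO was checked first. Uqcrfs1 held 43.9, 42.2, 40.4, 35.3 and 34.4 CPM (counts scaled to a common library size, with TMM factors) in the naive WT libraries, 37.7, 23.1, 21.3 and 19.0 CPM in Het 1 to 4 and 8.65, 5.33, 9.32, 6.96 and 7.74 CPM in KO 1 to 5. It was lower in KO in each of the 9 KO comparisons, with log2 fold changes from −4.0 to −1.73. All 10 microglia markers (among them P2ry12 and Tmem119) were above 0 in every group, with a summed level of 17414 to 55864 CPM per library. Libraries fall into 4 sets that the labels do not name, by the share of counts on the noncoding transcripts Gm26917 and Yam1 and by total counts. One set holds naive KO 1 to 5, Het 1 to 4, all WT and all PLX3397 libraries (9323294 to 16273039 counts, noncoding share up to 0.276%). The others are naive KO 6 to 11 with Het 5 to 11 (6379348 to 11694165 counts), naive 12 and 13 with the old Het libraries (15927459 to 24027566 counts) and cuprizone (2695432 to 5100363 counts), with noncoding shares of 2.22 to 13.6%. Every comparison between groups stays inside a set. Per the labels, untreated KO and WT were read on an older NextSeq model, with shorter reads, than all other samples, so instrument and group cannot be told apart where naive KO or naive WT is compared with naive Het or with PLX3397 libraries.

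The share of all counts that fell on the 83 genes was higher in KO than in its controls, with 1 Het library as an exception. In the second naive series KO libraries held 1.98 to 3.05%, Het 5 to 8 held 1.1 to 1.21%, and Het 9 held 2.40%, inside the KO range. The 5 naive WT libraries held 1.98 to 2.37% and Het 1 to 4 held 1.78 to 1.95%. KO 1 held 2.47%, and KO 2 to 5 held 3.39, 4.28, 4.8 and 3.82%. At repopulation WT libraries held 4.50 to 5.32%, Het 4.36 to 5.05% and KO 8.60, 6.95, 7.49 and 7.27%, so every repopulated control stood above every naive KO library except KO 4. Cuprizone gave the lowest share, 0.851% in Het 2, and its KO libraries held 2.15 to 3.97%. Adding the -ps rows, raised no library's share by more than 0.0742 percentage points.

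**Figure D1:**
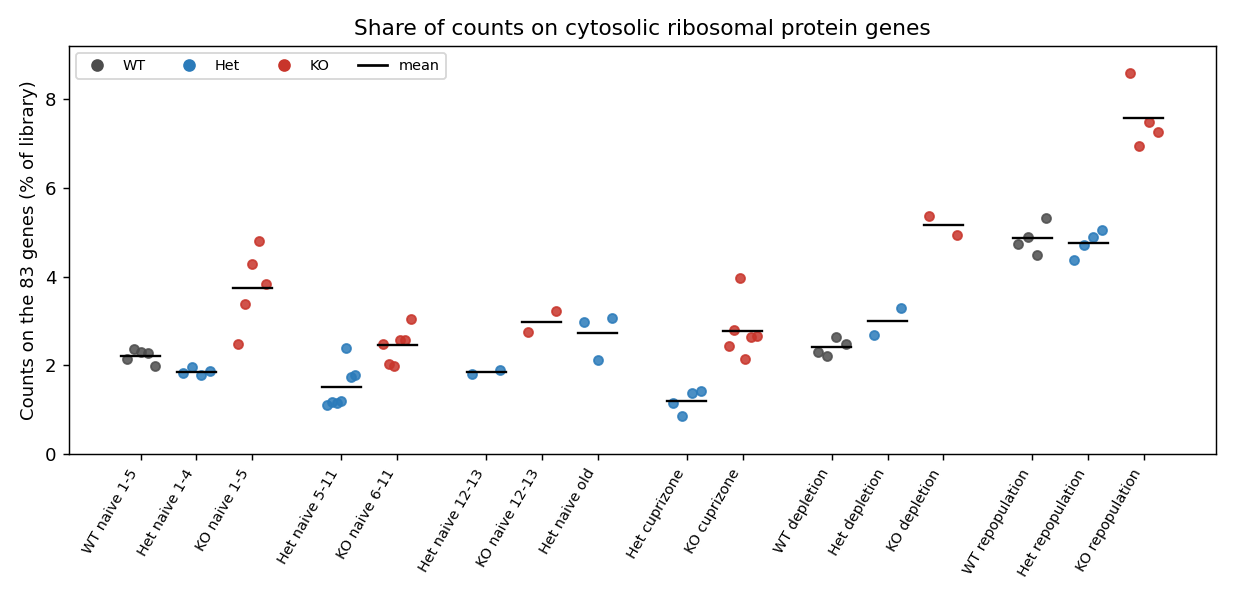
Share of each library's counts on the 83 cytosolic ribosomal protein genes (% of library, y axis) by group (x axis); points are libraries, horizontal lines are group means. KO points lie above those of their controls except in the set of Het 5 to 11 and KO 6 to 11, where Het 9 (2.40%) lies inside the KO range of 1.98 to 3.05%.

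In naive replicates 1 to 5, scaled counts of nearly all cytosolic ribosomal protein genes were higher in microglia labelled KO than in WT microglia. The 77 main members had log2 fold changes of 0.55 to 1.09. Over the 82 genes tested the median was 0.78, against a median near 0 for all 18413 genes (0.00). By edgeR's quasi-likelihood test with Benjamini-Hochberg adjustment 69 members were called higher and 0 lower, where 1.15% of all genes were called higher and 0.787% lower. The groups did not overlap for 31 members (1.48% of all genes). Small-subunit proteins (median 0.83), large-subunit proteins (0.77) and stalk proteins (0.83) shared this shift.

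Rps6, the small-subunit protein phosphorylated downstream of mTORC1, held 385, 425, 446, 431 and 378 CPM in WT and 467, 706, 861, 986 and 787 CPM in KO. All KO libraries were above all WT libraries (log2 fold change 0.88 ± 0.18, standard error). Rps19, which is mutated in Diamond-Blackfan anaemia, held 128, 179, 161, 155 and 137 CPM in WT and 170, 255, 336, 422 and 300 CPM in KO. Here KO 1 lay inside the WT range (0.97 ± 0.22). Rpl36a, an X-linked large-subunit gene with the highest fold change of the main members here, held 78.4, 86.7, 89.8, 78.7 and 73.1 CPM in WT and 95.3, 156, 188, 228 and 202 CPM in KO. Its groups did not overlap (1.09 ± 0.21). Rplp1, a stalk protein that helps recruit elongation factors, held 586, 560, 626, 620 and 554 CPM in WT and 651, 1052, 1246, 1520 and 1329 CPM in KO (0.98 ± 0.21), again without overlap. Rpl3, a core protein of the large subunit that contacts the peptidyl transferase centre, had a smaller difference, with 458, 515, 531, 475 and 446 CPM in WT and 515, 682, 804, 921 and 816 CPM in KO (0.62 ± 0.16). Rpl5 and Rpl11, which form a particle with 5S rRNA and can bind Mdm2, had log2 fold changes of 0.77 ± 0.18 and 0.58 ± 0.21, and Rpl11 was among the 13 genes tested that were not called.

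Against Het 1 to 4 the same KO libraries had 76 members called higher and 0 lower (1.48% of all genes called higher and 1.25% lower), a median log2 fold change of 1.02 and 76 members without overlap (4.94% of all genes). Het libraries were close to each other. Rpl36a held 70.3, 73.6, 60.1 and 63.8 CPM and Rps15a, a small-subunit protein, 82.6, 88.9, 87.1 and 79.2 CPM, while KO 1 to 5 held 111, 173, 226, 303 and 202 CPM of Rps15a (1.26 ± 0.25). An earlier account of these data put KO 1 to 4 and WT 1 to 4 in a different division from KO 5, WT 5 and Het 1 to 4. A term for this division left 25 members called, and only KO 5 shares a division with these Het libraries. Genotype and division cannot be told apart for KO 1 to 4 against Het. The comparisons with WT and with Het share the KO libraries, so they are not independent of each other. Sex, read from Y-linked genes, was unbalanced. KO 2 and Het 2 to 4 were female, while KO 1, KO 3 to 5, Het 1 and WT 1 to 5 were male.

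The members moved as a block within each library. Relative to the WT mean, the 77 main members were shifted by a mean log2 difference of 0.11 in KO 1, 0.67 in KO 2, 0.97 in KO 3, 1.15 in KO 4 and 0.87 in KO 5, with an SD over members of only 0.07 to 0.15. In KO 1, 72 of 77 members were above the WT mean, and in KO 2 to 5 all 77. WT 3 had 75 of 77 above that mean, with a mean shift of 0.11, so this measure did not set KO 1 apart from it. In the other WT libraries 3 to 61 members were above it. The spread among KO libraries was correspondingly wide: the median SD of log2 CPM over the members was 0.40 in KO 1 to 5, above the 0.34 of all genes, whereas in WT it was 0.11 against 0.30. The count against WT was 10 without KO 4, 33 without KO 3, 45 without KO 5, 42 without WT 1, 40 without WT 5 and 75 without KO 1. The share of counts on mitochondrial genes was 2.05 to 4.09% in these KO libraries and 1.5 to 2.17% in WT. The 8 border macrophage markers, of which none was at 0, summed to between 182 and 592 CPM in KO, 558 and 1300 CPM in WT and 552 and 852 CPM in Het 1 to 4. The part of either measure in the result was not tested.

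**Figure D2:**
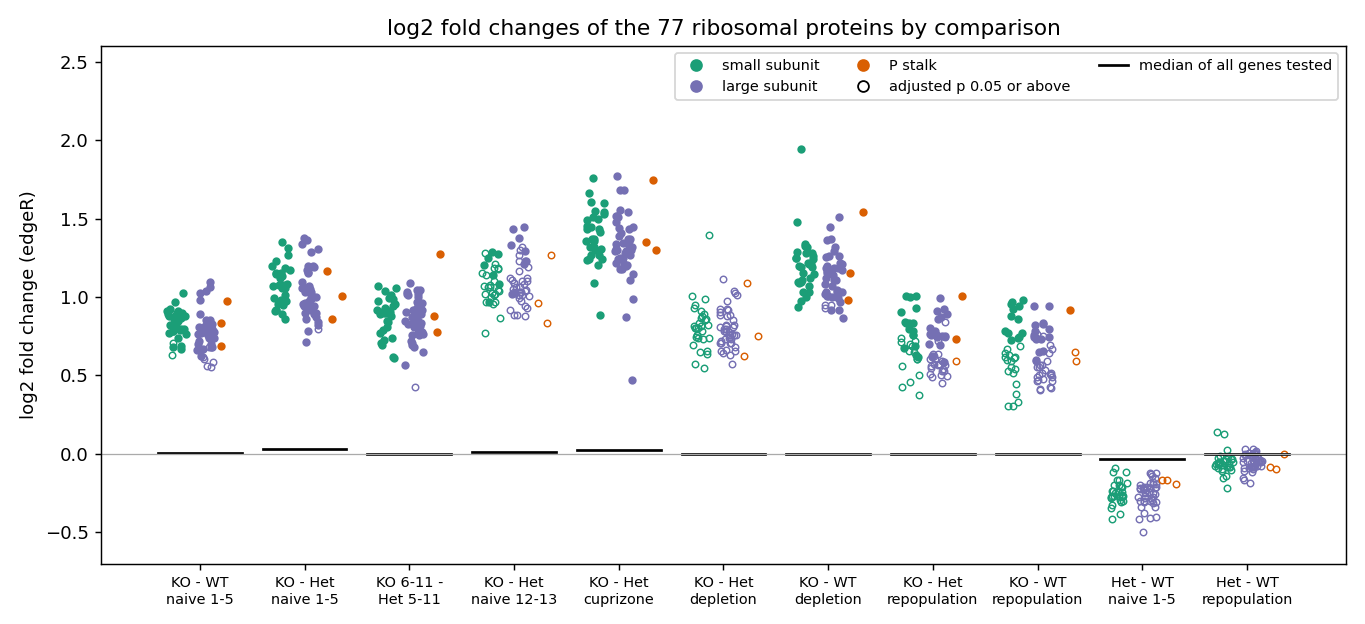
log2 fold change (y axis) of each of the 77 main ribosomal proteins in 11 comparisons (x axis), by subunit; filled points passed the adjusted p of 0.05, open points did not, and black lines are medians of all genes tested. In the 9 KO comparisons every point lies above 0, and in naive Het against WT every point lies below 0 with none past the threshold.

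In the second naive series (KO 6 to 11 against Het 5 to 11) 77 members were called higher and 0 lower, where 7.68% of all genes were called higher and 6.07% lower. The median log2 fold change was 0.88, with 0.43 to 1.28 over the main members. Only 3 members did not overlap (0.967% of all genes). Het 9 stood 0.87 above the Het mean, inside the KO shifts of 0.56 to 1.28. Het 10 and 11 stood 0.29 and 0.30 above that mean, and Het 5 to 8 stood 0.31 to 0.44 below it. KO 9 to 11 had shifts of 1.02 to 1.28 and KO 6 to 8 of 0.56 to 0.87. Over the alternatives other than leaving out 1 library, which include a term for numbers 9 to 11, 59 to 78 members were called. Rplp1 had the largest change: Het libraries held 252 CPM at the lowest, a median of 287 and 705 at the highest, and KO libraries 738, 896 and 1310 CPM (1.28 ± 0.19). Rpl18, a large-subunit protein, had the smallest of the main members (0.43 ± 0.20) and was not called. Other measures moved with the groups. Mitochondrial genes took 6.16 to 10.3% of counts in Het and 14.0 to 22.8% in KO. The 18 genes of tissue dissociation stress (Fos, Jun, Klf4 and the like) summed to between 5966 and 14309 CPM in Het but to between 1517 and 3843 CPM in KO, and 16 of them fell. The part of these measures in the members' result was not tested.

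Naive KO 12 and 13 were compared with Het 12 and 13, which the selection of the family did not name. There 16 of 82 members rose and 0 fell (0.348% of all genes called higher and 0.223% lower), with a median log2 fold change of 1.07. KO and Het did not overlap for 80 members, but with 2 libraries a group 23% of all genes were also higher without overlap. Rpl4, a large-subunit protein that lines the exit tunnel, rose most (1.44 ± 0.30, adjusted p = 0.00857). Rps6 held 336 and 345 CPM in Het and 740 and 827 CPM in KO (1.20 ± 0.28, adjusted p = 0.0294), and Rpl5 also rose (1.21 ± 0.28, adjusted p = 0.0276). Leaving out any 1 of the 4 libraries left 0 members called. Mitochondrial genes took 7.07 and 9.34% of counts in Het and 27.2 and 25.9% in KO, and with mitochondrial genes removed 7 members were called.

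Under cuprizone the difference between KO and Het was the widest of the study by median. Of the 82 members 80 were called higher and 0 lower (8.16% of all genes called higher and 5.83% lower), the median log2 fold change was 1.34, and 76 members did not overlap (3.91% of all genes). Rps15a held 48.9, 50.2, 55.4 and 51.4 CPM in Het and, in KO, 114 CPM at the lowest, a median of 165 and 240 at the highest (1.66 ± 0.26). Rps19 held 55.4, 38.4, 74.4 and 81.1 CPM in Het and 164, 190 and 339 CPM in KO (1.76 ± 0.24). Rpl39, a small protein of the exit tunnel, held 15.3, 5.93, 23.2 and 28.6 CPM in Het and 46.4, 58.5 and 90.5 CPM in KO (1.77 ± 0.28), without overlap. Rpl22, an RNA-binding large-subunit protein that mice can live without, went from 130, 57.7, 158 and 148 CPM in Het to 283, 339 and 454 CPM in KO (1.48 ± 0.20).

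Rpl10a was at the low end under cuprizone. This large-subunit protein held 136, 115, 124 and 147 CPM in Het and 147, 181 and 227 CPM in KO (0.47 ± 0.16), the lowest fold change of the 77 main members. It was below the median of the main members in all 6 KO comparisons without shared libraries and among the lowest 10 in 3 of them, with 0.76 ± 0.15 in naive KO against WT. Rpl10 (0.87 ± 0.17), Rps2 (0.89 ± 0.16) and Rpl3 (0.99 ± 0.17) were also at the low end. Het 2 stood 0.62 below the Het mean over the members and KO 3 stood 1.87 above it. Dissociation stress genes summed to between 23112 and 48719 CPM in Het but to between 1974 and 15749 CPM in KO, with 15 of 18 genes lower, and mitochondrial genes took 4.05 to 8.34% of counts in Het and 9.49 to 17.4% in KO. The part of these measures in the members' result was not tested.

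At PLX3397 depletion, KO libraries were again above both controls. Against the 4 WT libraries 74 members were called higher and 0 lower (1.09% of all genes called higher and 0.516% lower), with a median log2 fold change of 1.15 and 79 members without overlap (12.1% of all genes). Rps15a led, with 99.4, 94.1, 129 and 120 CPM in WT and 343 and 509 CPM in KO (1.94 ± 0.30). Rplp1 held 616, 576, 848 and 730 CPM in WT and 2079 and 1959 CPM in KO (1.54 ± 0.28). Rpl38, a large-subunit protein known for mouse patterning defects, had a log2 fold change of 1.51 ± 0.26. Against the 2 Het libraries edgeR called 0 members, with a lowest adjusted p of 0.0673. There 74 members had an unadjusted p under 0.05 and DESeq2 called 10 (edgeR called 0.217% of all genes higher and 0.293% lower). The median was 0.78, and 78 members did not overlap (19.2% of all genes). Het 2 held 209 CPM of Rps15a and Het 1 held 116 CPM. The count against WT was 9 without KO 1 and 33 without KO 2. Mitochondrial genes took 5.56 and 5.74% of counts in KO, 2.72 to 4.08% in WT and 3.03 and 4.21% in Het, and the part of this in the result was not tested.

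At repopulation the KO libraries added a further step above controls that were themselves high. Against WT 30 members were called higher and 0 lower (2.26% of all genes called higher and 2.53% lower), with a median log2 fold change of 0.61, and 73 members did not overlap (8.55% of all genes). Against Het 36 were called and 0 lower (2.15% of all genes called higher and 2.48% lower), with a median of 0.68 and 77 without overlap (8.77% of all genes). Rpsa, a small-subunit protein also known as a laminin receptor, held 695, 751, 623 and 873 CPM in WT, 648, 716, 717 and 810 CPM in Het and 1683, 1312, 1408 and 1409 CPM in KO. Every KO library stood above every control (0.98 ± 0.22 against WT). Rplp0 held 1288, 1325, 1350 and 1639 CPM in WT and 2531, 2051, 2159 and 2030 CPM in KO (0.65 ± 0.21). Rps29, a zinc-binding small-subunit protein, held 641, 613, 524 and 761 CPM in WT and 917, 720, 754 and 739 CPM in KO (0.30 ± 0.22), so here WT 4 lay inside the KO range. Without KO 1 the counts were 7 against WT and 9 against Het, and without KO 3 they were 19 and 22. They were also 11, 12 and 13 without WT 1, 2 or 3, and 16, 18 and 19 without Het 1, 2 or 3. The fit of only the libraries compared called 73 and 77. By Y-linked genes KO 1, Het 1 to 3 and WT 1 and 2 were female and the other repopulated libraries male, so sex was unbalanced. Mitochondrial genes took 3.55 to 4.09% of counts in KO, 2.42 to 2.85% in WT and 2.17 to 2.87% in Het, and the part of this in the result was not tested.

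**Figure D3:**
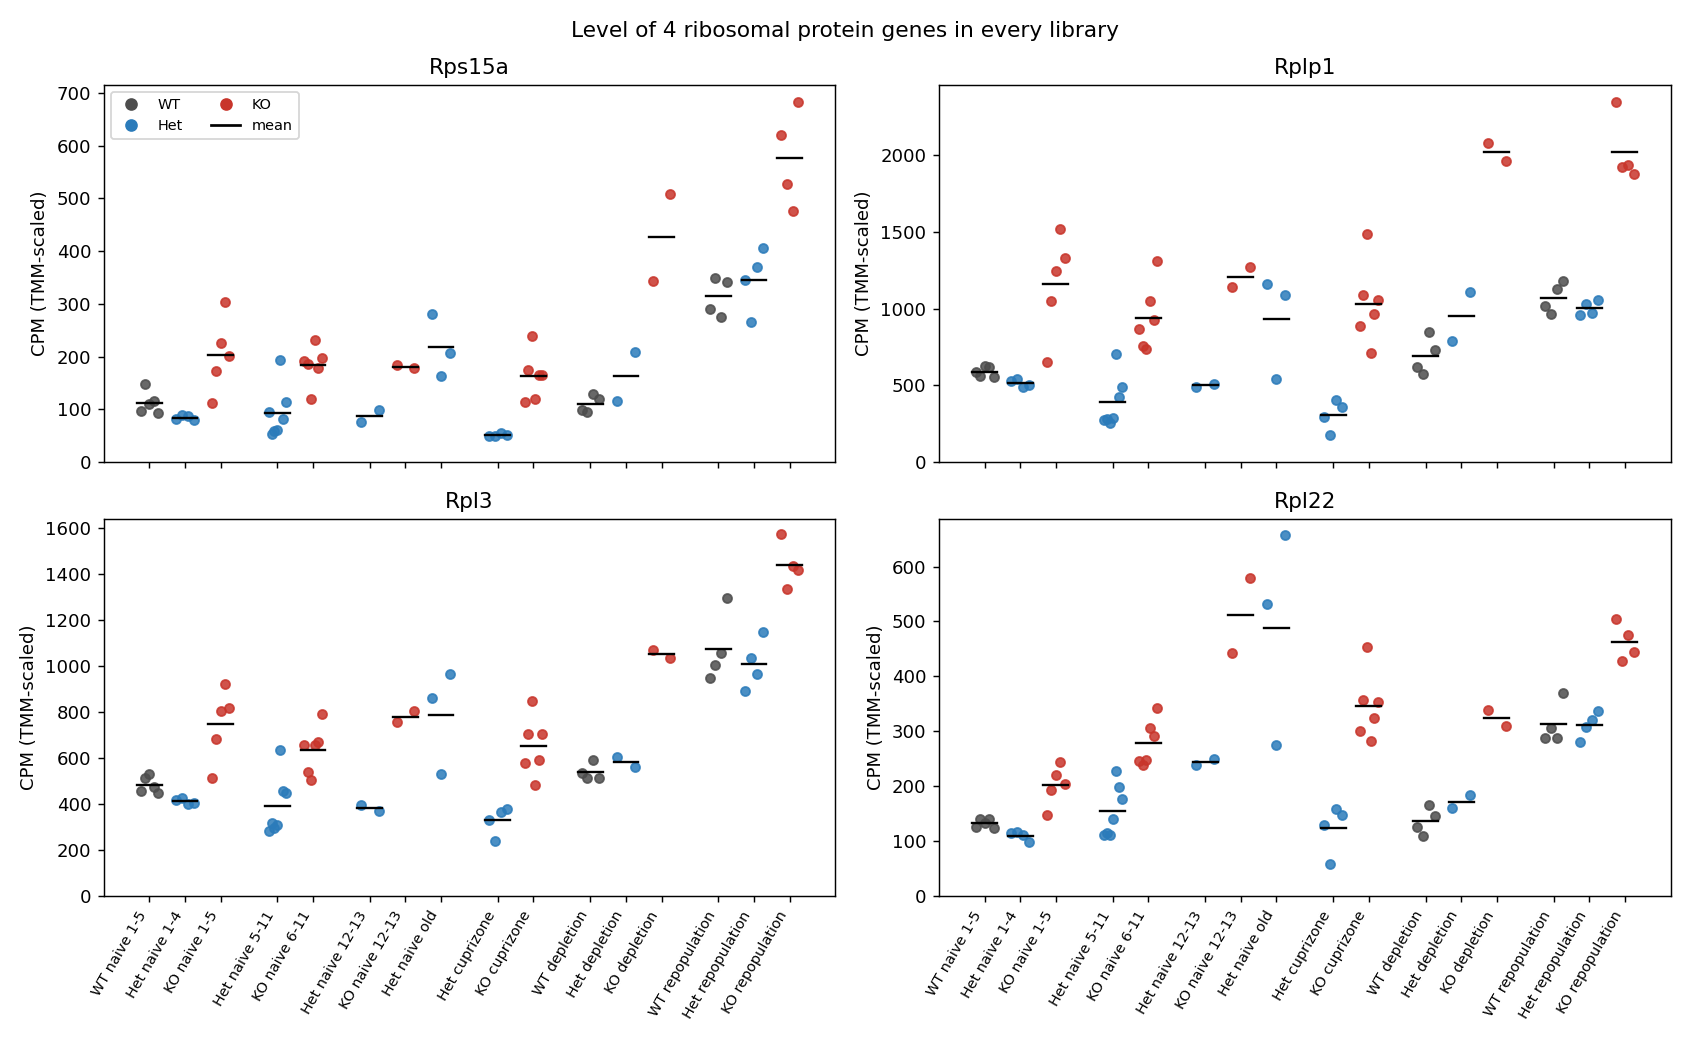
Level of Rps15a, Rplp1, Rpl3 and Rpl22 (CPM, TMM-scaled, y axes) in every library by group (x axis); points are libraries and lines are means. For Rps15a the 4 WT libraries at repopulation (274 to 350 CPM) lie above the naive WT libraries (92.3 to 148 CPM), while for Rplp1 the gap is smaller (962 to 1177 against 554 to 626 CPM).

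Scaled counts of ribosomal protein genes were higher in repopulated than in naive microglia in each genotype. The selection of the family did not use this contrast, but its KO comparisons used the same naive and repopulated libraries. The contrast is therefore not independent of the selection. In WT 78 of 82 members rose and 0 fell (2.23% of all genes rose and 1.09% fell), with a median log2 fold change of 1.34 and 0.86 to 1.68 over the main members. In Het 78 rose and 0 fell (3.28% and 2.23% of all genes) with a median of 1.51, and in KO 78 rose and 0 fell (2.02% and 1.04% of all genes) with a median of 1.17. The Het libraries at both times were, per the labels, read on the same model of instrument. In this Het contrast Spearman's rho with transcript length over coding genes outside the family was −0.24, the most negative of the 16 comparisons. The part of length was not tested. In WT Rpl32, a large-subunit protein, rose most (1.68 ± 0.24, adjusted p = 9.61e-07). Rps27, a zinc-binding small-subunit protein, held 146, 137, 155, 128 and 128 CPM in naive WT and 413, 434, 335 and 531 CPM in repopulated WT (1.63 ± 0.21, adjusted p = 2.51e-07), without overlap. Rplp1 rose least of the main members in each genotype (0.86 ± 0.23 in WT, 0.96 ± 0.24 in Het and 0.80 ± 0.22 in KO, adjusted p = 0.0151, 0.007 and 0.0315). Rplp1 had the highest mean of the members over the KO comparisons. Border macrophage markers (Mrc1, Cd163 and others) moved the other way: all 8 fell in each genotype, and in WT they summed to 558 to 1300 CPM in naive and 31 to 80.8 CPM in repopulated libraries. Their part in the members' rise was not tested. None of the 10 proliferation markers passed in WT by edgeR (median −0.64).

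Depletion and naive libraries were closer. In WT 0 of 82 passed between depletion and naive by edgeR, 2 had an unadjusted p under 0.05, DESeq2 called 0, and the median log2 fold change was 0.19 (1.42% of all genes called higher and 1.46% lower). In KO the median was 0.55, 52 members had an unadjusted p under 0.05 and Rps15a alone rose (1.07 ± 0.29, adjusted p = 0.0463, with 0.619% of all genes called higher and 0.668% lower), a call lost without either KO depletion library or without naive KO 1, 2, 3 or 5.

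Het and WT differed less. In naive libraries all 77 main members had a negative log2 fold change in Het 1 to 4 against WT (median −0.24, from −0.50 to −0.09), but edgeR called 0 in either direction, 1 had an unadjusted p under 0.05 and DESeq2 called 0 (0.0109% of all genes were called higher and the same share lower). Rpl41, which encodes the shortest ribosomal protein, was lowest, with 248, 290, 264, 270 and 185 CPM in WT and 197, 188, 162 and 167 CPM in Het (−0.50 ± 0.24, adjusted p = 0.604), and the ranges overlapped. In the same comparison the 384 coding genes outside the family under 700 bases had a median of −0.26. The 32 members of that length had −0.27. From 700 to 1000 bases the medians were −0.20 outside the family and −0.23 for members. Across the 77 main members Spearman's rho of this fold change was 0.36 with transcript length and 0.56 with mean level. The part of transcript length in this shift was not tested. The instrument differs between these groups per the labels. Division differs as well: Het 1 to 4 share theirs with WT 5 and not with WT 1 to 4. WT 5 had the lowest share of counts on the family in naive WT (1.98%) and a mean shift of −0.13 from the WT mean. Division and genotype cannot be told apart for WT 1 to 4 against Het. At repopulation, where the instrument does not differ, the median was −0.05, with 0 called, 0 at an unadjusted p under 0.05 and 0 by DESeq2 (0% of all genes called either way by edgeR).

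Differences between KO effects were tested directly. The KO effect against WT at repopulation minus that in naive libraries had a median of −0.14 over the members, with 0 called by edgeR or DESeq2 and 0 at an unadjusted p under 0.05 (0.00543% of all genes called higher and 0.0326% lower). The KO effect in naive KO 6 to 11 minus that in naive KO 1 to 5, both against Het, had a median of −0.15 with 0 called by edgeR or DESeq2 and 1 at an unadjusted p under 0.05 (0.119% of all genes called higher and 0.424% lower). That gene was Rpl10a (−0.50 ± 0.20, adjusted p = 0.296). A difference that misses the threshold is not shown to be absent.

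Of the KO comparisons, 6 share no library: KO against WT in naive, depletion and repopulation, and KO against Het in the second naive series, in replicates 12 and 13 and under cuprizone. All 77 main members were above 0 in these 6. Of them 68 were called in at least 4, 35 in at least 5 and 11 in all 6: Rpl4, Rpl5, Rpl10, Rpl12, Rpl14, Rpl17, Rpl23, Rpl36a, Rps2, Rps6 and Rps12. Of all genes 0.874% were called higher in at least 4, 0.396% in at least 5 and 0.125% in all 6. Most of these comparisons selected the family, so nothing is read from the counts. The mean log2 fold change over the 6 was highest for Rplp1 (1.29), Rps15a (1.23), Rpl36a (1.22), Rpl23 (1.21) and Rpl12 (1.20), and lowest for Rpl10a (0.71), Rpl18 (0.77), Rpl3 (0.79) and Rps9 (0.79). Rpl12 and Rplp1 sit together at the base and tip of the stalk region. The other stalk protein genes were not among the 10 highest. As a description across the 77 members of the same libraries, Spearman's rho of the KO fold change ran from −0.16 (KO against WT at depletion) to 0.24 (KO against WT at repopulation) with transcript length. With mean level it ran from −0.31 (KO 1 to 5 against Het) to 0.12 (KO against Het at repopulation). In repopulated against naive Het it was −0.23 with length and −0.43 with mean level.

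**Figure D4:**
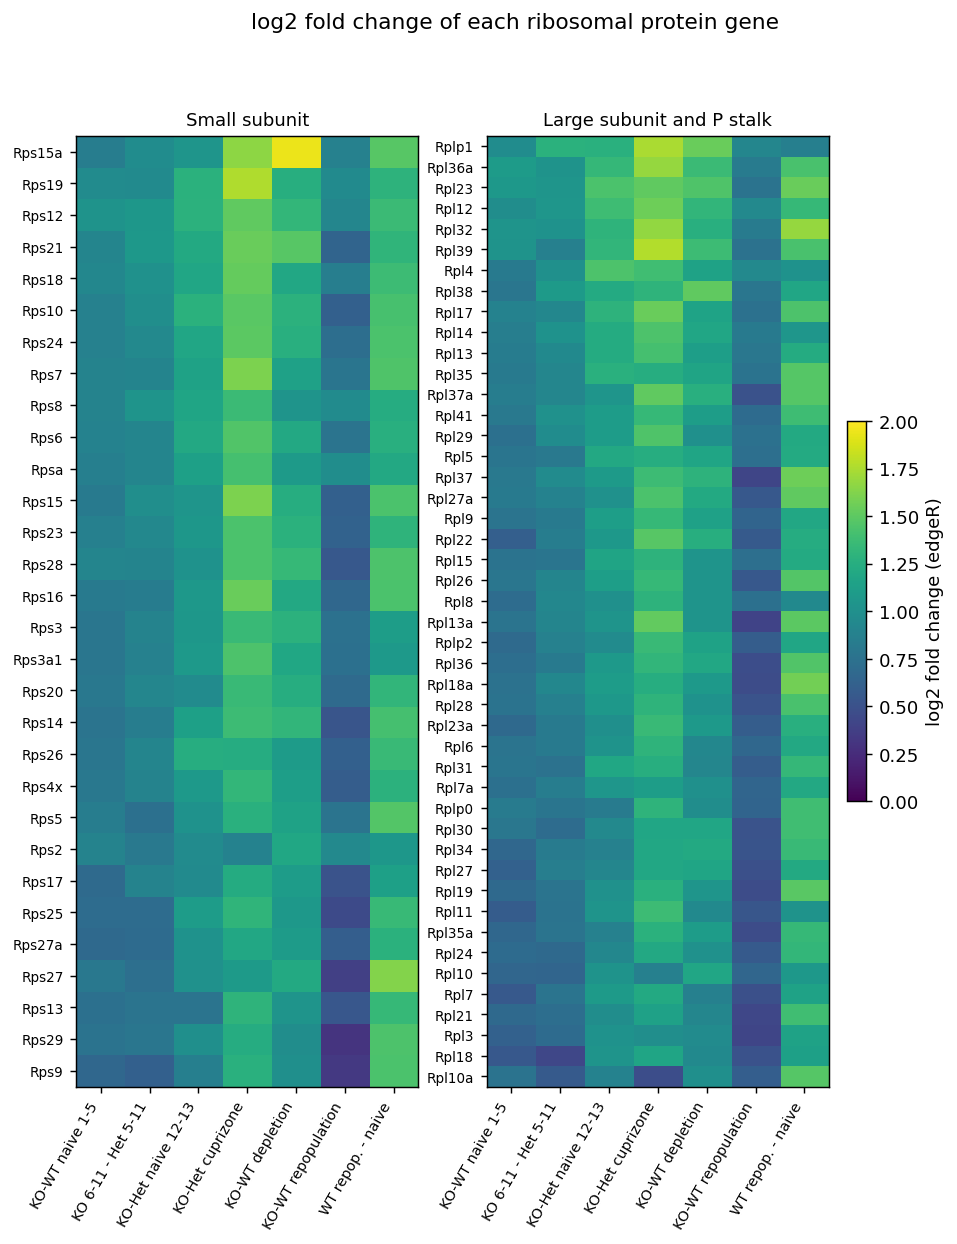
log2 fold change (colour, 0 to 2) of the main ribosomal protein genes, 1 of which is not drawn (y axis, small subunit left, large subunit and stalk right, ordered by mean KO fold change) in the 6 KO comparisons without shared libraries and in repopulated against naive WT (x axis). Rps15a at depletion (1.94) is the brightest cell, Rpl10a is dark under cuprizone (0.47), and Rplp1 heads its panel but is among the dark cells of the repopulation column (0.86).

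Short coding genes outside the family were also shifted up in several comparisons, with smaller medians than the members. For the 384 such genes under 700 bases the median log2 fold change was 0.07 in naive KO against WT, where the 32 members of that length had 0.78. It was 0.29 against 1.02 in KO 1 to 5 against Het, 0.28 against 1.19 in KO against WT at depletion and 0.47 against 1.56 in repopulated against naive Het. Under cuprizone it was 0.33 against 1.32, and 18.5% of these short genes were called higher and 2.6% lower. The part of transcript length in the result was not tested. Per length, the most abundant member in naive WT was Rplp1 with 1181 ± 66.5 CPM per kilobase of transcript (SD, n = 5), followed by Rps9 with 833 ± 49.6. Rpl3 held 359 ± 27.0 and Rpl38 151 ± 6.99 CPM per kilobase.

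Fau and Gnb2l1, ribosomal proteins whose symbols fall outside the rule, were set beside the members in the same libraries. Fau, which encodes the small-subunit protein S30 fused to a ubiquitin-like domain, rose in naive KO against WT (0.73 ± 0.19, adjusted p = 0.021), in the second naive series (0.80 ± 0.16) and under cuprizone (1.28 ± 0.20). It did not pass in KO against WT at repopulation (0.32 ± 0.21, adjusted p = 0.463). Gnb2l1, also named Rack1, a scaffold on the small subunit, rose in those 3 (0.77 ± 0.18, 0.90 ± 0.16 and 1.26 ± 0.19) and at repopulation (0.92 ± 0.20, adjusted p = 0.00213). Both rose in repopulated against naive WT (1.51 ± 0.20 and 1.22 ± 0.19).

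Extra copies and paralogs were mixed. Rpl37rt was higher in KO in the second naive series (0.93 ± 0.25) and under cuprizone (1.31 ± 0.33), and it rose in repopulated against naive WT (1.46 ± 0.30, adjusted p = 0.000899), Het and KO. Rps3a3 was higher under cuprizone (2.21 ± 0.69), at no more than 4.42 CPM in any KO library. Rps19bp1 passed in none of the 16 comparisons between groups by edgeR, and its highest log2 fold change in a KO comparison was 0.51 ± 0.21, in the second naive series. Rps27rt had the largest fitted fold change under cuprizone (3.70 ± 0.90), but it held 0, 0, 0 and 0.268 CPM in Het and at most 2.36 CPM in KO, so this value rests on a handful of counts, and reads of such a copy can be shared with Rps27. Among the 7 paralogs tested, Rpl22l1, the paralog of Rpl22, split the library sets. It held 13.6, 16.1, 20.4, 16.6 and 11.7 CPM in naive WT, 12, 10.6, 12 and 11.8 CPM in Het 1 to 4, and 20, 25.5, 38.4, 39.5 and 30.8 CPM in KO 1 to 5. There it rose against WT (0.97 ± 0.23, adjusted p = 0.0133) and against Het (1.41 ± 0.26, adjusted p = 0.000474). In the second naive series it held 17.4, 30.2 and 36.5 CPM (lowest, median and highest) in Het and 15.2, 26.9 and 30 CPM in KO (−0.20 ± 0.21, adjusted p = 0.588). The difference between the 2 series passed (−1.61 ± 0.33, adjusted p = 0.00634). Under cuprizone it was −0.16 ± 0.24 (adjusted p = 0.758), and it rose in repopulated WT (1.79 ± 0.25, adjusted p = 6.41e-07). Rpl22 itself was higher in KO in both naive series (0.87 ± 0.20 against Het 1 to 4 and 0.85 ± 0.16 in the second). Rpl36al, the paralog of Rpl36a, rose in KO in the second naive series (0.61 ± 0.20) and under cuprizone (1.13 ± 0.25), and in repopulated WT (0.80 ± 0.23, adjusted p = 0.0306). Rps27l (1.01 ± 0.25) and Rpl7l1 (0.33 ± 0.09) rose in the second naive series, and Rpl7l1 also under cuprizone (0.51 ± 0.11). Rps4l, the paralog of Rps4x, fell in KO under cuprizone (−1.08 ± 0.35, adjusted p = 0.03) and at repopulation against WT (−1.28 ± 0.35, adjusted p = 0.0174).

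Other genes of the translation machinery were taken from lists, so that the members could be set beside their pathway. Of 26 translation factors with known TOP starts, 9 rose and 0 fell in naive KO against WT (median log2 fold change 0.43), 20 and 0 in the second naive series (0.53), 19 and 1 under cuprizone (0.70), 13 and 0 in KO against WT at depletion (0.69) and 9 and 0 at repopulation (0.48). Eef2, the translocase of elongation, rose by 0.60 ± 0.13 (adjusted p = 0.00721) in the first of these and by 0.73 ± 0.12 in the second. Eef1b2, a nucleotide exchange factor of elongation, rose by 0.91 ± 0.20 and 1.05 ± 0.18. Repopulated WT also had 17 of 26 higher and 0 lower (0.64), led by Eif3f (1.17 ± 0.15, adjusted p = 1.86e-07).

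Of 8 host genes of small nucleolar RNAs, a list in which Cyb5r4 is no such host, 4 rose and 0 fell in naive KO against WT (median 1.05). Gas5 rose by 1.14 ± 0.19 and Snhg8 by 1.04 ± 0.20. In the second naive series, where 7.68% of all genes were called higher, 1 rose (Snhg6, 1.07 ± 0.26) and the median was 0.18. The difference between the 2 series passed for Snhg8 (−1.11 ± 0.28, adjusted p = 0.0463). Under cuprizone 1 rose (Snhg6, 1.36 ± 0.33) and 1 fell (Snhg5, −1.41 ± 0.40). Of all genes 8.16% were called higher there and 5.83% lower, and nothing is read from these single calls. In repopulated WT 4 rose, with Gas5 at 2.07 ± 0.20 (adjusted p = 5.01e-10).

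Genes that build ribosomes had lower medians than the proteins they assemble. Of 25 early and 5S assembly factors 1 rose in naive KO against WT (Gnl3, a nucleolar GTPase, 0.60 ± 0.16), 5 in the second series, 5 under cuprizone and 3 at repopulation, with 0 lower and medians of 0.18 to 0.34. Of 40 genes of the small-subunit processome and nucleolar RNA particles 1, 13, 4 and 8 rose in the same comparisons. Under cuprizone 2 of the 40 were lower, so both counts there are near the 8.16% and 5.83% of all genes called higher and lower. Npm1, a nucleolar chaperone, rose in repopulated WT (0.97 ± 0.19), the only one of the 40 to do so, where the ribosomal proteins had a median of 1.34. Of 21 genes of RNA polymerase I and its factors 0 passed in naive KO against WT by edgeR. Polr1c, a subunit shared with polymerase III, rose in the second series (0.56 ± 0.15), where 7.68% of all genes were called higher.

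Of 36 genes of mTORC1 and its regulators 3 rose and 1 fell in naive KO against WT. Eif4ebp1, the translation repressor that mTORC1 phosphorylates, rose (0.88 ± 0.19), as did Sesn2 (0.92 ± 0.25), a stress-induced inhibitor of the pathway, and Sesn1, a relative of Sesn2, fell (−0.50 ± 0.12). Reporters of the integrated stress response, which lowers translation initiation, were mostly higher in KO. Of 15 such genes 10 rose and 0 fell in naive KO against WT (median 1.07) and 13 and 0 at repopulation (1.85), and Atf5 rose by 2.49 ± 0.32 and 3.90 ± 0.38. In the second naive series 11 rose and 1 fell (1.35). Under cuprizone 9 rose and 2 fell (1.03), and Atf4, the central transcription factor of the response, was among those that fell (−1.0 ± 0.18, adjusted p = 3.23e-05). Between repopulated and naive WT 0 of the 15 passed by edgeR (median −0.17), while the ribosomal proteins rose. 

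**Figure D5:**
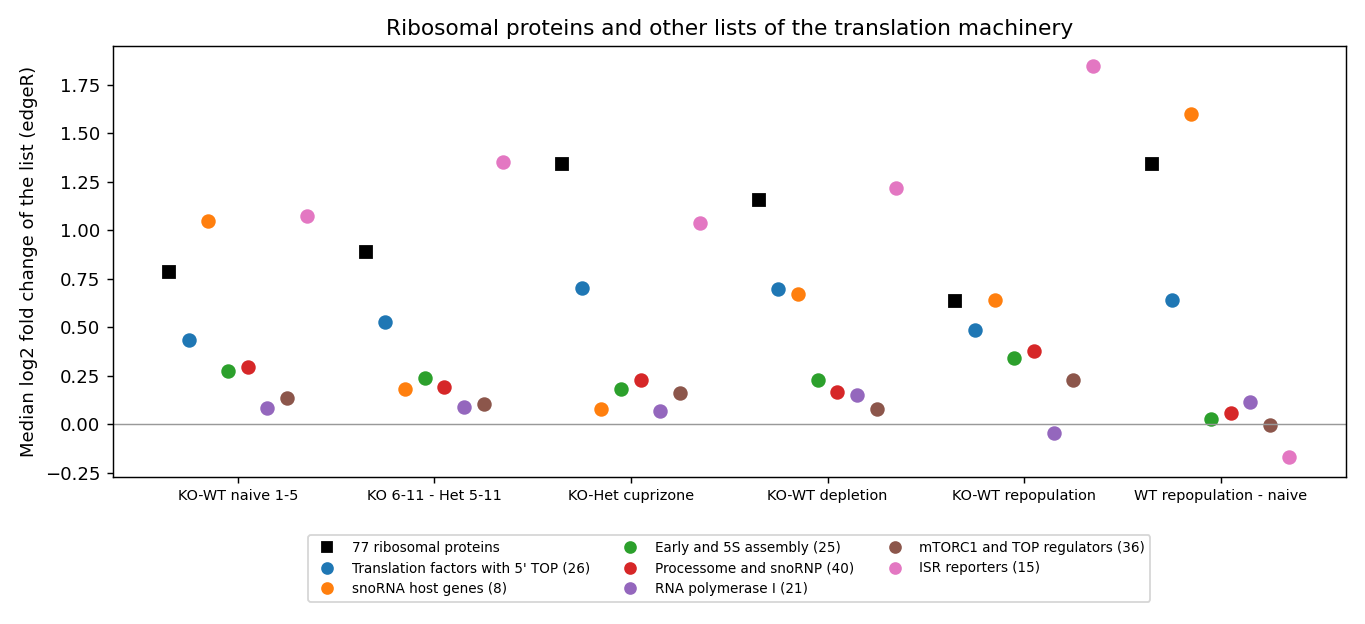
Median log2 fold change (y axis) of the 77 ribosomal proteins (squares) and of 7 other gene lists (circles, number of genes tested in the legend) in 6 comparisons (x axis). The ISR reporters lie above the ribosomal proteins in naive KO (1.07 against 0.78) and at 1.85 in KO at repopulation, but below 0 (−0.17) in repopulated against naive WT.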

How the data were processed

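The members and all gene lists were chosen with earlier results of these data known. The authors deposited 1 table of raw counts per gene for 64 libraries of total RNA from sorted microglia. Libraries were made with a stranded SMARTer kit for total RNA and read from a single end, per the labels' protocols. The submitters' processing notes name the aligner STAR 2.6.1d, the quantifier Salmon 1.5.2, Trim Galore (version 0.6.7), bcl2fastq 2.20 and the build GRCm38, without saying which step made the counts. Reads that fit several gene copies could therefore be split or dropped.

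Counts of 18413 genes that passed edgeR's filterByExpr (minimum count 10, minimum total 15) were scaled by TMM and fitted with edgeR 4.0.16 (quasi-likelihood) in R 4.3.3, with 1 mean per group and library set. Fold changes are log2 values from this fit. A prior count of 2 was used only for log2 CPM values, from which overlap, SDs and shifts per library were taken. P-values were adjusted by Benjamini-Hochberg over all genes, with a threshold of 0.05, in 16 comparisons and 2 differences between KO effects. The library sets follow ranges of replicate numbers from the choice of this family and an earlier account of these counts. They differ in the share of Gm26917 and Yam1 and in total counts, and the labels do not name them. A division of the naive libraries into runs listed next to each other, known from an earlier account of these data, was used as an alternative. Alternatives were DESeq2 1.42.0 and its size factors, no filter, fits of only the libraries compared, thinned counts, scaling without the members, removal of mitochondrial genes, terms for sex (read from Y-linked genes), division and replicate number, and each library left out, the last with the spread trend of all libraries. A term for numbers 9 to 11 of the second naive series was fitted as well. Depth was 2695432 to 24027566 counts per library. On simulated counts, with 200 changed genes among 18413, edgeR recovered 59.7% of genes changed 2-fold in naive KO against WT and 46.3% in KO against WT at repopulation. Of genes changed 1.5-fold it recovered 11.9% and 8.96%, where the members' median folds were 1.72 and 1.53. In KO against WT at depletion it recovered 25.4% at 2-fold and 2.99% at 1.5-fold. Named genes were the 5 members with the highest fold change among those called, members with a known role, and up to 4 genes of each of 26 lists. Others named were chosen after their values were seen. A few genes are not reported here.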

Additional observations from a re-analysis of the deposited data

Results flagged for a closer look

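Of the 198 groups and measures examined, 8 held a library whose gap to its nearest neighbour was wide for the range of its group, where chance gives about 1 in 20. Cuprizone KO 3 was highest in the share of counts on the members (3.97%, others 2.15 to 2.81%, n = 6), in Rps19 (339 CPM, others 164 to 207) and in Rps27 (257 CPM, others 99.9 to 151). Naive Het 9 was highest of its 7 libraries in Rps19 (203 CPM, others 61.1 to 121) and in Rplp2 (606 CPM, others 247 to 394). Repopulation KO 1 was highest in Rplp1 (2349 CPM, others 1874 to 1938, n = 4). Naive WT 5 was lowest in Rpl39 (111 CPM, others 131 to 137, n = 5), and naive Het 2 was lowest in Rpl22l1 (10.6 CPM, others 11.8 to 12, n = 4).

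The KO effect against Het differed between the second and the first naive series, by edgeR's test of the difference with Benjamini-Hochberg adjustment, for Rpl22l1 (−1.61 ± 0.33, adjusted p = 0.00634) and for 8 listed genes that are not ribosomal proteins. These were Pcna (−1.52), Eif3j1 (−1.26), Nhp2 (−1.0), Snhg8 (−1.11), Btg2 (−2.78), Jund (−2.44), Klf4 (−2.40) and Klf6 (−1.34). The series differ in noncoding share and depth, whose part was not tested.

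The 3 old naive Het libraries, which enter no comparison, had a median share of 2.97% of counts on the members, above the 1.80 and 1.89% of adult Het 12 and 13 in the same set. Their mitochondrial share was 10.9 to 29%.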

How the results depend on the processing

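Of the member counts under alternatives 323 stayed within 1.5 times the reported count and 52 did not. Where members were called, the median log2 fold change kept its sign in each alternative. Het against WT at repopulation, with 0 called, had medians from −0.11 to 0.02 when 1 library was left out. The KO effect in the second minus the first naive series, also with 0 called, had −0.31 to 0.04. The sign of these medians thus depended on the library left out. For KO 12 and 13 against Het the count of 16 became 68 by DESeq2, 26 with DESeq2 size factors, 28 without the filter, 63 with only the libraries compared, 26 with thinned counts and 7 without mitochondrial genes, and 0 without any 1 library. KO against Het at depletion went from 0 to 10 by DESeq2. KO at repopulation, with only the libraries compared, gave 77 against Het (36 reported) and 73 against WT (30 reported). A division term gave 25 for KO 1 to 5 against Het. Depletion against naive gave 1 in WT with only the libraries compared. In KO (1 reported) it gave 3 by DESeq2 and 0 with only the libraries compared, scaling without the members, a sex term, thinned counts or no mitochondrial genes.

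Leaving out 1 library gave 10 to 75 for KO against WT in naive, 72 to 77 for KO 1 to 5 against Het, 77 to 79 in the second series, 78 to 80 under cuprizone, 9 to 69 for KO against WT at depletion, 9 to 32 and 7 to 28 at repopulation against Het and WT, and 0 to 1 for KO depletion against naive. Replicate numbers did not pair the samples (correlations of −0.21 to 0.21). With the replicate block the counts were 0 for KO against WT in naive, 0 for KO 1 to 5 against Het, 77 for KO 12 and 13, 3 for KO against Het at depletion, 74 and 72 at repopulation against Het and WT, 4 lower for Het against WT in naive and 3 for KO depletion against naive, whose median became 0.94 (0.55 reported). The division term was not run where libraries carry no division, nor the block for differences between KO effects.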
